A study of Homo sapiens with 24 samples.

Results

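The comparison is between 2 human acute myeloid leukaemia (AML) cell lines, ELF-153 and UCSD-AML1, after both had been treated with decitabine (DAC) and harvested at 96 h. It rests on all 3 ELF-153 libraries with 100 nM DAC and all 3 UCSD-AML1 libraries with 100 nM DAC of that harvest, 6 of the 24 libraries of the study. The same lines without DAC at 96 h (3 libraries each), and with 100 nM DAC at 144 h (3 libraries each), are used to say whether a difference under treatment was also found without it, and again in other libraries. The untreated libraries of 96 h also enter the fit, so that standard errors, p-values and the filter on low values rest on all 12 libraries of that harvest. All cells were grown in RPMI with fetal calf serum and GM-CSF, and DAC was renewed daily. Total RNA depleted of ribosomal RNA was sequenced with a stranded kit. The replicates are labelled as technical triplicates, so that p-values measure only the spread between these libraries, and a difference between 2 lines cannot be assigned to a subtype of AML.

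Decitabine is a cytidine analogue that is incorporated into DNA and traps DNA methyltransferases there, so that methylation is lost as cells go through replication. Genes and repeats silenced by methylation, among them cancer-testis genes and endogenous retroviruses, can then be transcribed, and RNA from repeats can set off an interferon response. UCSD-AML1 is known for a rearrangement of the long arm of chromosome 3 that drives MECOM, the gene of the transcription factor EVI1.

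Values are scaled reads: the reads of a gene in a library divided by the size factor of that library, and differences are log2 of ELF-153 DAC over UCSD-AML1 DAC after 1 was added, with the standard error (SE) and the Benjamini-Hochberg adjusted p of limma over all 17609 genes tested. A gene is called at an adjusted p below 0.05. ELF-153 DAC libraries held 19.43 to 24.25 Mreads (mega-reads) on transcripts and UCSD-AML1 DAC libraries 25.75 to 28.28. Mitochondrial ribosomal RNA took 37.3% to 49.8% of them in ELF-153 DAC and 61.7% to 63.8% in UCSD-AML1 DAC, groups that did not overlap (exact permutation test, two-sided, p = 0.1, the smallest that 3 against 3 allows). ELF-153 DAC replicate 2 stood furthest from its fellows, with a correlation of log2 values of 0.943 and 0.956 with them against 0.972 between the other two. Without it 3107 genes were higher and 3973 lower, against 3670 and 3881 with it, and with the mitochondrial share as a covariate 3677 were higher and 3147 lower.

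Of the 17609 genes, 3670 (20.8%) were higher in ELF-153 DAC and 3881 (22.0%) were lower, 7551 (42.9%) in all, and the median difference of all genes was −0.03. Called and at least 2-fold higher were 2802 genes (15.9% of those tested), and called and at least 2-fold lower 2941 (16.7%). The 3 libraries of each group did not overlap for 4487 (25.5%) genes on the higher side and 4764 (27.1%) on the lower side. The groups that stood out in the lists below were platelet genes and endothelial markers, lower in ELF-153 DAC, and cell division and DNA replication genes, higher in it. For a list, the share of members called is to be read against these background shares. Bulk RNA cannot tell fewer cells of a type from less RNA per cell.

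**Figure D1:**
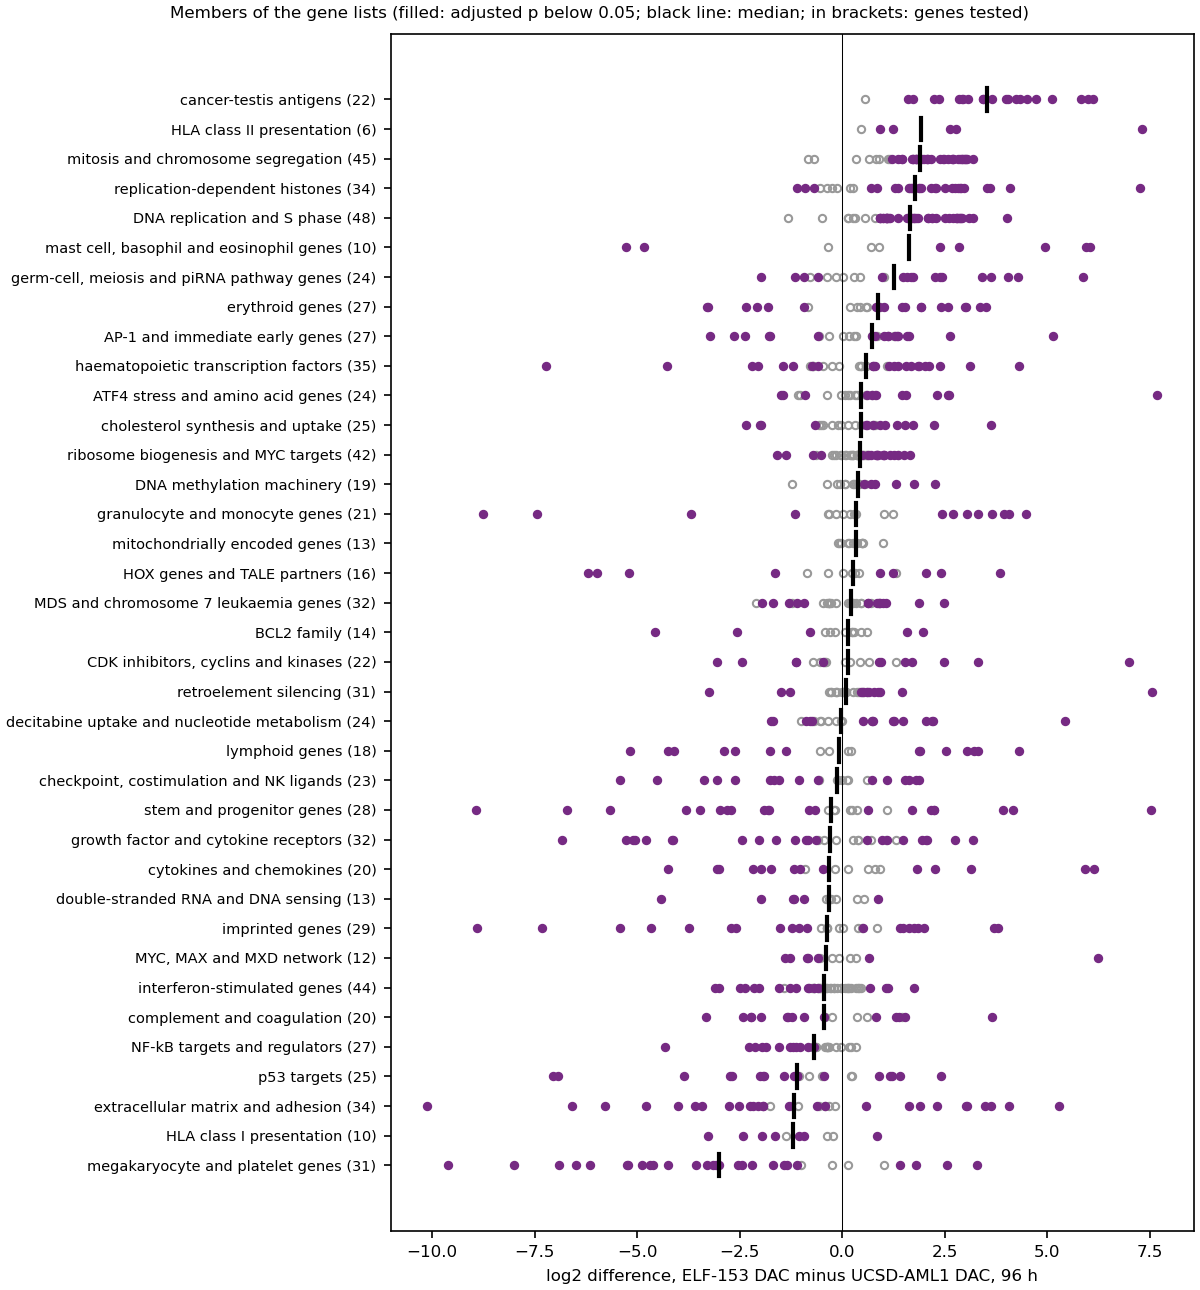
Log2 difference of each tested member of the 37 gene lists, ELF-153 DAC minus UCSD-AML1 DAC at 96 h, with called genes filled and the list median as a black bar. Megakaryocyte and platelet genes had the lowest median (−3.00). The median of cancer-testis antigens (3.54) includes 10 of 22 genes that passed the filter on low values only through ELF-153 DAC and had to be higher.

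MECOM separated the lines under DAC as it did without it. MECOM (chromosome 3), a zinc finger transcription factor of stem cells, had 2.84, 2.62 and 2.94 scaled reads in ELF-153 DAC, against 1822, 2006 and 1723 in UCSD-AML1 DAC. All ELF-153 values lay near the floor, and the difference was −8.93 ± 0.37 (adjusted p = 5.02e-10). Untreated cells held a mean of 1.63 in ELF-153 and 4002 in UCSD-AML1. The gap was narrower with DAC by 1.87 ± 0.52 (line by treatment, adjusted p = 0.02), and it was −6.54 at 144 h.

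Of 28 stem and progenitor genes tested, 8 were higher and 13 lower in ELF-153 DAC, with a median of −0.28. ALDH1A1, the retinaldehyde dehydrogenase used as a stem cell marker, had 32.2, 25.3 and 32.3 in ELF-153 DAC against 2782, 3499 and 3396 in UCSD-AML1 DAC (−6.71 ± 0.24). HMGA2, a chromatin architectural protein of fetal and stem cells, went the other way, with 168, 379 and 209 in ELF-153 DAC against 0, 1.12 and 0 in UCSD-AML1 DAC. As this is 1 read in all in UCSD-AML1 DAC, the ratio of 752 has a 95% counting interval of 135 to 29741. MN1, a transcriptional cofactor that is overexpressed in some AML, was lower, at 531, 475 and 572 in ELF-153 DAC against 5643, 3886 and 3280 in UCSD-AML1 DAC (−2.98 ± 0.21). CD34, the surface marker of progenitors, had 176, 210 and 145 in ELF-153 DAC against 300, 266 and 268 in UCSD-AML1 DAC (−0.66 ± 0.21, adjusted p = 0.0196), and the call was lost without ELF-153 DAC replicate 3 (adjusted p = 0.0971), without UCSD-AML1 DAC replicate 1 (0.0644), with the mitochondrial covariate (0.258) and without retained-intron and processed transcripts (0.244). KIT, the stem cell factor receptor, had 214, 901 and 352 in ELF-153 DAC against 376, 244 and 463 in UCSD-AML1 DAC, groups that overlapped, and was not called (0.23 ± 0.46, adjusted p = 0.728). With the mitochondrial covariate KIT was called higher (2.10, adjusted p = 9.42e-04), and without ELF-153 DAC replicate 2, the highest library, the difference was −0.34 (adjusted p = 0.52).

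Platelet genes were mostly lower in ELF-153 DAC. Of 31 megakaryocyte and platelet genes tested, 23 were lower in ELF-153 DAC and 4 higher, with a median of −3.00. ITGB3, the beta subunit of the platelet fibrinogen receptor, had 1498, 1083 and 1245 in ELF-153 DAC against 33528, 30760 and 28508 in UCSD-AML1 DAC (−4.61 ± 0.17, adjusted p = 1.72e-10). PF4, a chemokine of platelet granules, had 485, 287 and 379 in ELF-153 DAC against 5742, 8624 and 7224 in UCSD-AML1 DAC (−4.24 ± 0.33). P2RY1, an ADP receptor of platelets, had 320, 360 and 355 in ELF-153 DAC against 3538, 4308 and 4502 in UCSD-AML1 DAC (−3.57 ± 0.16). In each the highest ELF-153 library lay below the lowest UCSD-AML1 library.

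F13A1, the A chain of coagulation factor XIII, had no read in the 3 ELF-153 DAC libraries and 228, 270 and 275 in UCSD-AML1 DAC, and was at least 276-fold lower in ELF-153 (floor of 3 reads over the group). CLEC1B, the platelet receptor CLEC-2, likewise had no read in ELF-153 DAC against 653, 839 and 876 in UCSD-AML1 DAC, at least 846-fold lower. The 4 higher genes, named after their values were seen, were LAT, an adaptor of T-cell and platelet receptor signalling (1.40), ALOX12, platelet 12-lipoxygenase (1.80), CD9, a tetraspanin (2.55), and MYL9, a myosin light chain (3.28). Within each line (20.7% of all genes were higher and 12.9% lower with DAC in ELF-153, and 20.0% and 20.1% in UCSD-AML1) most of these genes were higher with DAC than without it, 23 of 31 in ELF-153 and 28 of 31 in UCSD-AML1, with none lower. The line difference was also found without DAC, with 24 of 31 lower and 3 higher in untreated ELF-153 (35.2% and 22.7% of all genes), and 21 lower and 6 higher in ELF-153 DAC at 144 h (14.6% and 30.0%).

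Endothelial markers went with the platelet genes. CDH5, the cadherin of endothelial junctions, had 1.89, 0.872 and 2.94 in ELF-153 DAC against 3332, 3288 and 2599 in UCSD-AML1 DAC (−10.11 ± 0.32). TEK, the angiopoietin receptor, had 3.79, 0 and 5.87 in ELF-153 DAC against 363, 336 and 403 in UCSD-AML1 DAC (−6.84 ± 0.54). The 4 endothelial markers CDH5, VWF, KDR and TEK summed to 515 to 889 in ELF-153 DAC and 18861 to 33482 in UCSD-AML1 DAC, with VWF, which platelets also make, holding most of it. The 8 megakaryocyte and platelet markers summed to 10676 to 16392 in ELF-153 DAC and 104212 to 132906 in UCSD-AML1 DAC, and GP1BB was at 0 in both. These are cultured lines, and whether other cells took part was not tested. The fibroblast markers summed to 47.9 to 50.2 in ELF-153 DAC and 8.99 to 50.2 in UCSD-AML1 DAC, and EPCAM and MS4A1 were at 0 in both.

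**Figure D2:**
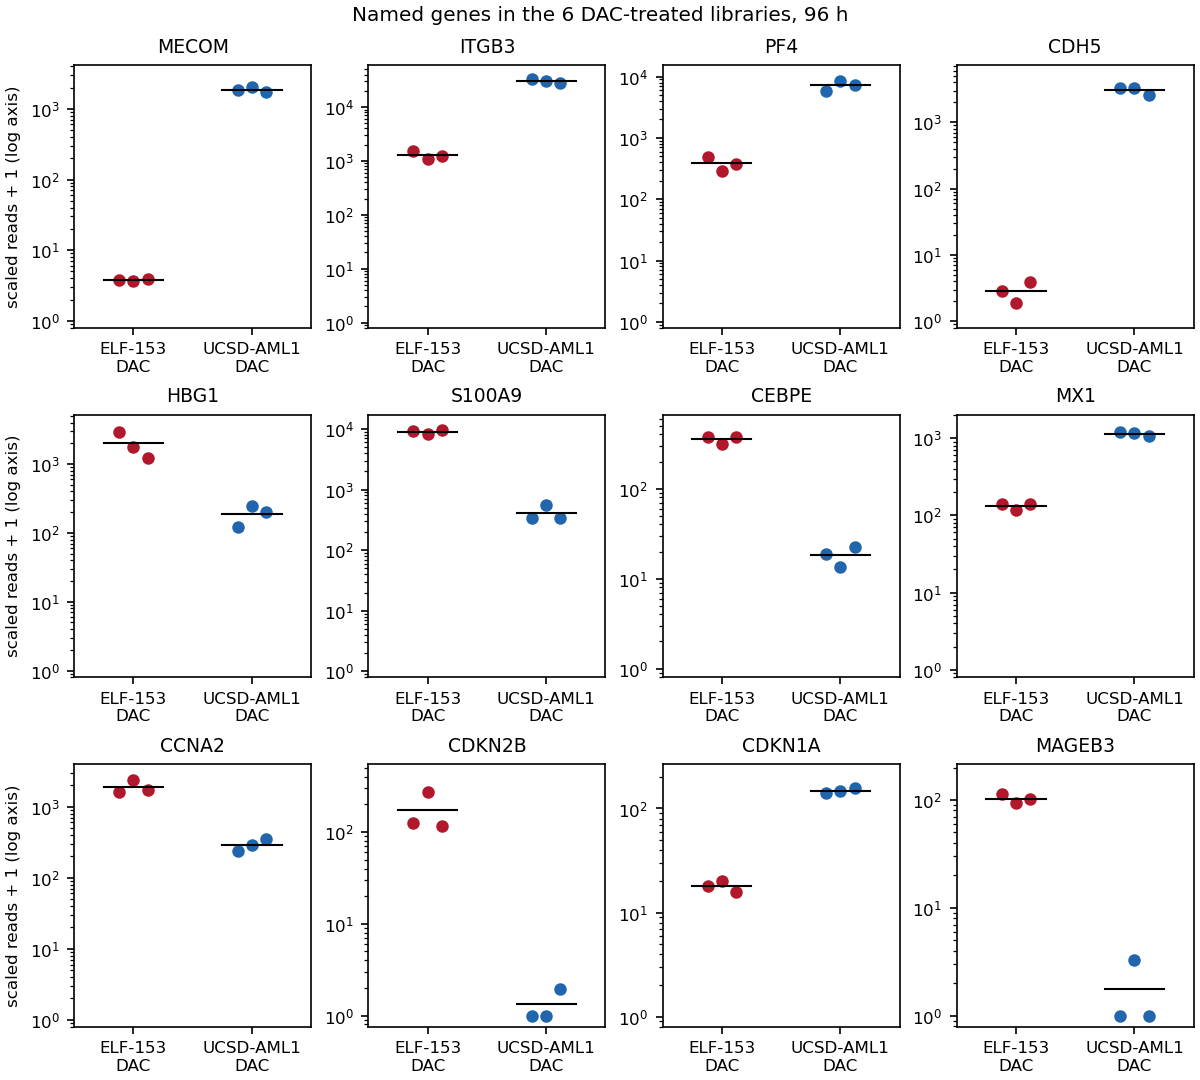
Scaled reads plus 1 (log axis) of 12 named genes in each DAC-treated library at 96 h, with ELF-153 DAC in red on the left and UCSD-AML1 DAC in blue on the right; bars are means of 3 libraries. The groups do not overlap in any of the 12 panels, and MECOM, ITGB3, PF4, CDH5, MX1 and CDKN1A are lower in ELF-153 DAC. Only called genes were drawn, and CDKN2B and MAGEB3 passed the filter on low values only through ELF-153 DAC. Over all genes the groups did not overlap for 25.5% on the higher and 27.1% on the lower side.

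The gamma, delta and beta globin genes HBG1, HBD and HBB were higher in ELF-153 DAC. The alpha globin genes were near 0 in both lines and not tested. HBA1 had a mean of 3.82 in ELF-153 DAC and 4.11 in UCSD-AML1 DAC, and HBA2 0 in ELF-153 DAC and 0.328 in UCSD-AML1 DAC. HBA1 and HBA2 are near-copies, so that these low values are uncertain. Of 27 erythroid genes tested, 13 were higher and 6 lower (median 0.87), with 8 higher without ELF-153 DAC replicate 3 and 6 with the mitochondrial covariate. HBG1, the fetal gamma globin A, whose reads cannot be separated with certainty from those of its near-copy HBG2, had 2951, 1795 and 1222 in ELF-153 DAC against 121, 247 and 198 in UCSD-AML1 DAC (3.36 ± 0.36, adjusted p = 4.77e-06), while untreated cells held a mean of 4.48 in ELF-153 and 3.98 in UCSD-AML1. HBD, delta globin, had 739, 700 and 652 in ELF-153 DAC against 52.1, 116 and 109 in UCSD-AML1 DAC (2.99 ± 0.26), whereas untreated ELF-153 lay below untreated UCSD-AML1 (−0.90, adjusted p = 0.01). The line by treatment difference was called for HBG1 (3.26 ± 0.51) and HBD (3.88 ± 0.37). Other genes of the list did not follow: RHAG, the Rh-associated glycoprotein, had 510, 637 and 497 in ELF-153 DAC against 4383, 5490 and 6267 in UCSD-AML1 DAC (−3.29 ± 0.43), and HEMGN, a nuclear protein of blood precursors, had 991, 1258 and 836 in ELF-153 DAC against 3450, 4500 and 4965 in UCSD-AML1 DAC (−2.07 ± 0.27). The 8 erythroid markers, HBG1 among them, summed to 2854 to 4979 in ELF-153 DAC and 443 to 768 in UCSD-AML1 DAC.

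GATA motifs were looked for in RefSeq promoters (GRCh38.p14, 250 bases before to 50 after the start) because the lineage factors GATA1 and GATA2 bind them. AGATAA, on either strand, was found in 8 of 17 promoters of the erythroid list (47.1%), in 4 of 8 of the mast cell, basophil and eosinophil list (50%) and in 3 of 23 of the platelet list (13%), against 5.36% of 9742 promoters of genes tested and 10.3% of all 35116. HBD, higher in ELF-153 DAC, and CPA3, lower in it, both held the motif, shown in capitals in the promoters of HBD (chr11:5234434-5234733, minus strand) and CPA3 (chr3:148865046-148865345, plus strand), written 5′ to 3′ on the strand of the gene, on which a TTATCT marks a match on the other strand.
HBD: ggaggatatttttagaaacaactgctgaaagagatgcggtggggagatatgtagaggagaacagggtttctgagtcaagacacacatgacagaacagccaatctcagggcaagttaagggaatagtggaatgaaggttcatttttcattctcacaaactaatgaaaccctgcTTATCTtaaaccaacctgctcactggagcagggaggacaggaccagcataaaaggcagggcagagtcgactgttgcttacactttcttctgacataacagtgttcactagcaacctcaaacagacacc
CPA3: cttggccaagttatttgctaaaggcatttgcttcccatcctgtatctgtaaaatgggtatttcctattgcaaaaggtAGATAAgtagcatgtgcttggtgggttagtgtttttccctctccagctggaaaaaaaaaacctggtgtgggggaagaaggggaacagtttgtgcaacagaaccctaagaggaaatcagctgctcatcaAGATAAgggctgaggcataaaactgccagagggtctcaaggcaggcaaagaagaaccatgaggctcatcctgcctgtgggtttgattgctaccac
The match describes the letters only, and it was present in a gene of each direction.

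Granulocyte genes, and genes of mast cells and eosinophils, were split between the lines. Of 21 granulocyte and monocyte genes tested, 8 were higher and 4 lower (median 0.34). S100A9, a calcium-binding protein of neutrophils and monocytes, had 9358, 8151 and 9690 in ELF-153 DAC against 345, 554 and 340 in UCSD-AML1 DAC (4.49 ± 0.20, adjusted p = 1.3e-09). ANPEP, the myeloid surface peptidase CD13, had 2928, 2174 and 2745 in ELF-153 DAC against 450, 310 and 220 in UCSD-AML1 DAC (3.05 ± 0.26). LYZ, lysozyme, was higher at a mean of 1320 ± 173 in ELF-153 DAC against 252 ± 79.5 in UCSD-AML1 DAC (SD, n = 3 each; 2.43 ± 0.30). On the other side CLEC12A, an inhibitory lectin of myeloid cells, had no read in ELF-153 DAC against 418, 382 and 493 in UCSD-AML1 DAC, at least 462-fold lower. CSF1R, the macrophage colony-stimulating factor receptor, was lower at a mean of 10.7 ± 4.36 in ELF-153 DAC against 147 ± 38.1 in UCSD-AML1 DAC (−3.69 ± 0.54). Of the primary granule genes, none of which was tested, ELANE was at 0 in both lines, MPO and PRTN3 were near 0, and AZU1 had 0, 4.36 and 1.96 in ELF-153 DAC against 13.8, 8.99 and 4.86 in UCSD-AML1 DAC.

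Of 10 mast cell, basophil and eosinophil genes tested, 5 were higher and 2 lower in ELF-153 DAC. CLC, the Charcot-Leyden crystal protein of eosinophils and basophils, had 1320, 1398 and 1596 in ELF-153 DAC against 32.5, 58.4 and 50.5 in UCSD-AML1 DAC (4.94 ± 0.35). CPA3, the carboxypeptidase of mast cells, had 16.1, 88.1 and 48.9 in ELF-153 DAC against 1383, 1580 and 2045 in UCSD-AML1 DAC (−5.28 ± 0.48), and FCER1A, the alpha chain of the IgE receptor, had 5.68, 5.23 and 4.89 in ELF-153 DAC against 128, 128 and 331 in UCSD-AML1 DAC (−4.82 ± 0.43). Of 18 lymphoid genes 7 were higher and 7 lower: PAX5, the B-cell transcription factor, had 411, 357 and 398 in ELF-153 DAC against 67.9, 61.8 and 69.9 in UCSD-AML1 DAC (2.53 ± 0.19), and CD5, a surface receptor of T cells, 9.47, 11.3 and 6.85 in ELF-153 DAC against 436, 373 and 287 in UCSD-AML1 DAC (−5.17 ± 0.42).

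Among 35 haematopoietic transcription factors tested, 15 were higher and 8 lower in ELF-153 DAC. CEBPE, which drives late granulocyte maturation, had 370, 314 and 373 in ELF-153 DAC against 17.7, 12.4 and 21.4 in UCSD-AML1 DAC (4.31 ± 0.26, adjusted p = 1.5e-08). No call was made for it in untreated cells, with a mean of 50.9 in ELF-153 and 39.2 in UCSD-AML1, and the line by treatment difference was 3.94 ± 0.36. IKZF1, the lymphoid and myeloid zinc finger factor Ikaros, had 179, 158 and 163 in ELF-153 DAC against 53.1, 37.1 and 44.7 in UCSD-AML1 DAC (1.88 ± 0.19). GATA2, a factor of stem and mast cells, had 3059, 2857 and 2943 in ELF-153 DAC against 1306, 1308 and 1065 in UCSD-AML1 DAC (1.27 ± 0.15).

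Among the lower factors, FLI1, an ETS factor of megakaryocytes and endothelium, had 208, 215 and 200 in ELF-153 DAC against 910, 931 and 1039 in UCSD-AML1 DAC (−2.20 ± 0.15). ETS1 had no read in ELF-153 DAC against 188, 138 and 122 in UCSD-AML1 DAC, at least 160-fold lower, and RUNX1 averaged 164 ± 10.5 in ELF-153 DAC against 697 ± 134 in UCSD-AML1 DAC (−2.06 ± 0.23). GATA1, the factor of erythroid and megakaryocyte cells, had 1064, 851 and 1025 in ELF-153 DAC against 1696, 1749 and 1460 in UCSD-AML1 DAC (−0.74 ± 0.24, adjusted p = 0.0217), although the adjusted p was 0.0675 without ELF-153 DAC replicate 2, 0.0626 without UCSD-AML1 DAC replicate 1 and 0.0701 without UCSD-AML1 DAC replicate 2. Without DAC the GATA1 gap was wider, at a mean of 32.5 in ELF-153 and 400 in UCSD-AML1 (line by treatment 2.92 ± 0.34). SPI1, the myeloid factor PU.1, had 258, 181 and 197 in ELF-153 DAC against 132, 133 and 112 in UCSD-AML1 DAC (0.74 ± 0.21, adjusted p = 0.0122), and was not called without ELF-153 DAC replicate 1 (adjusted p = 0.0629) or with the mitochondrial covariate (0.794). CEBPA was not called (−0.71 ± 0.30, adjusted p = 0.0755), and its groups overlapped. CEBPA was called lower with the mitochondrial covariate (−1.95, adjusted p = 2.42e-05), without ELF-153 DAC replicate 1 (−0.99, adjusted p = 0.0239), without replicate 1 or 2 of untreated ELF-153 (0.0296 and 0.0332) and in the 6 treated libraries alone (0.0495).

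Homeobox genes of the HOX clusters set the position of cells along the body axis and act in blood stem cells. Of 16 HOX genes and partners tested, 5 were higher and 4 lower. HOXA5 had 178, 202 and 168 in ELF-153 DAC against 48.2, 39.3 and 42.7 in UCSD-AML1 DAC (2.05 ± 0.19), and HOXA9, a factor of leukaemic self-renewal, averaged 84.2 ± 11.8 in ELF-153 DAC against 15.4 ± 4.61 in UCSD-AML1 DAC (2.41 ± 0.26). HOXB4 had 7.58, 2.62 and 7.83 in ELF-153 DAC against 468, 498 and 455 in UCSD-AML1 DAC (−6.19 ± 0.36), and HOXB3 had 0, 0.872 and 3.91 in ELF-153 DAC against 95.4, 62.9 and 72.8 in UCSD-AML1 DAC (−5.20 ± 0.50). The A cluster lies on chromosome 7, where 46.1% of protein-coding genes were higher and 9.70% lower, and the B cluster on chromosome 17, where 13.3% were higher and 41.9% lower. HOXA11, near the floor in both lines, was called lower.

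Receptors and their ligands also differed in single genes. Of 32 growth factor and cytokine receptors tested, 9 were higher and 14 lower. IL2RA, the alpha chain of the interleukin-2 receptor, had 310, 318 and 320 in ELF-153 DAC against 30.5, 38.2 and 34 in UCSD-AML1 DAC (3.18 ± 0.19). IL1RL1, the interleukin-33 receptor, had 20.8, 24.4 and 21.5 in ELF-153 DAC against 809, 763 and 802 in UCSD-AML1 DAC (−5.09 ± 0.35). Among 20 cytokines and chemokines 5 were higher and 9 lower: CCL1, a chemokine, had 273, 242 and 294 in ELF-153 DAC against 2.95, 1.12 and 5.83 in UCSD-AML1 DAC (6.13 ± 0.42). CXCL1, a neutrophil attractant, had 272, 245 and 263 in ELF-153 DAC against 4441, 5487 and 5000 in UCSD-AML1 DAC (−4.25 ± 0.16), and VEGFA had 224, 215 and 162 in ELF-153 DAC against 1543, 1798 and 1488 in UCSD-AML1 DAC (−3.01 ± 0.19). VEGFA was on the other side without DAC, at a mean of 316 in ELF-153 and 196 in UCSD-AML1 (0.67, adjusted p = 0.00688).

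Genes of cell division and of DNA replication were mostly higher in ELF-153 DAC. Of 45 genes of mitosis and chromosome segregation tested, 36 were higher and 0 lower (median 1.90). Without ELF-153 DAC replicate 2, 33 were higher and 1 lower. CCNA2, cyclin A2, had 1609, 2343 and 1688 in ELF-153 DAC against 233, 292 and 346 in UCSD-AML1 DAC (2.69 ± 0.19, adjusted p = 7.82e-08). MKI67, the proliferation antigen, had 206, 222 and 233 in ELF-153 DAC against 34.4, 25.9 and 19.4 in UCSD-AML1 DAC (3.04 ± 0.31), and KIF4A, a chromosome-binding kinesin, 229, 219 and 308 in ELF-153 DAC against 39.3, 33.7 and 22.3 in UCSD-AML1 DAC (2.97 ± 0.23). Of 48 genes of DNA replication and S phase, 40 were higher and 0 lower (median 1.65), with 33 higher without ELF-153 DAC replicate 2. GINS2, a subunit of the replicative helicase, had 692, 578 and 633 in ELF-153 DAC against 55.1, 88.8 and 65.1 in UCSD-AML1 DAC (3.19 ± 0.18), and CDT1, a licensing factor, 675, 529 and 696 in ELF-153 DAC against 96.4, 97.8 and 69.9 in UCSD-AML1 DAC (2.84 ± 0.20).

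This was not how the untreated lines compared. Without DAC 10 of the 45 mitosis genes were higher and 13 lower in ELF-153, and 15 of the 48 replication genes were higher and 9 lower. Of all genes 22.7% were higher and 35.2% lower there. The line by treatment difference was called higher for 26 of each list and lower for 0 of either (17.1% and 8.71% of all genes). Against their own untreated libraries, 21 of the 45 mitosis genes were lower with DAC in ELF-153 and 44 in UCSD-AML1, and 36 and 46 of the 48 replication genes. Of all genes 12.9% were lower with DAC in ELF-153 and 20.1% in UCSD-AML1. CCNA2 averaged 5103 in untreated ELF-153 and 7028 in untreated UCSD-AML1. At 144 h 39 of 43 mitosis genes tested and 38 of 46 replication genes were higher in ELF-153 DAC, with none lower (30.0% and 14.6% of all genes).

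Of the replication-dependent histones, made in S phase, 23 of 34 were higher and 3 lower (median 1.78). Unlike for the mitosis list, most were also higher without DAC, 20 of 34 with 4 lower (median 1.35), and the line by treatment difference was called upward for 10 and downward for 4. Of all genes 22.7% were higher and 35.2% lower without DAC, and the change was called upward for 17.1% and downward for 8.71%. HIST1H2AG had 15809, 12182 and 15619 in ELF-153 DAC against 1691, 2578 and 1965 in UCSD-AML1 DAC (2.82 ± 0.19), with reads of near-identical histone genes not separable. CDK6, the G1 kinase encoded on chromosome 7, had 7583, 14332 and 8086 in ELF-153 DAC against 1556, 1483 and 2246 in UCSD-AML1 DAC (2.47 ± 0.23). In the list of ribosome biogenesis and MYC targets, 42 genes, 15 were higher and 4 lower (1 to 5 lower when single libraries were left out), while MYC itself had 43.6, 20.1 and 18.6 in ELF-153 DAC against 76.7, 74.2 and 55.4 in UCSD-AML1 DAC (−1.39 ± 0.32, adjusted p = 0.00309). MYCL, its paralogue, had 313, 298 and 330 in ELF-153 DAC against 9.84, 0 and 5.83 in UCSD-AML1 DAC (6.23 ± 0.81).

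Brakes of the cell cycle were on opposite sides. CDKN2B, the inhibitor p15 of CDK4 and CDK6 and a known target of methylation in AML, had 125, 275 and 116 in ELF-153 DAC against 0, 0 and 0.971 in UCSD-AML1 DAC. With 1 read in UCSD-AML1 DAC the ratio was 515 (95% counting interval 92.1 to 20390). Untreated CDKN2B averaged 0.608 in ELF-153 and 0 in UCSD-AML1, and no difference was called there (line by treatment 6.49 ± 0.75). CDKN2B passed the filter on low values only through ELF-153 DAC, so that it had to be higher there. Its values are given as a description. CDKN2A, its neighbour that encodes p16 and ARF, had 513, 420 and 476 in ELF-153 DAC against 41.3, 54 and 45.7 in UCSD-AML1 DAC (3.30 ± 0.22), and the same gap without DAC (3.29). CDKN1A, the inhibitor p21, had 17, 19.2 and 14.7 in ELF-153 DAC against 141, 145 and 157 in UCSD-AML1 DAC (−3.05 ± 0.40).

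Targets of p53 were mostly lower in ELF-153 DAC, 15 of 25, with 5 higher (median −1.09; 3 to 5 higher when single libraries were left out). PLK2, a polo-like kinase, had 9.47, 9.59 and 13.7 in ELF-153 DAC against 1314, 1398 and 2122 in UCSD-AML1 DAC (−7.06 ± 0.24), and PHLDA3, an inhibitor of AKT, had 0, 1.74 and 1.96 in ELF-153 DAC against 237, 253 and 237 in UCSD-AML1 DAC (−6.92 ± 0.40). BAX, the pore-forming death effector, had 128, 131 and 119 in ELF-153 DAC against 724, 827 and 691 in UCSD-AML1 DAC (−2.56 ± 0.20). Of the exceptions, TNFRSF10A, a TRAIL receptor, had 786, 731 and 765 in ELF-153 DAC against 145, 143 and 139 in UCSD-AML1 DAC (2.41 ± 0.15). Without DAC 15 of the 25 were lower and 1 higher in ELF-153, against 35.2% and 22.7% of all genes. MDM2, the ligase that degrades p53, differed by −2.73 with DAC and by −2.64 without it.

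Of 19 genes of the DNA methylation machinery, which includes the enzymes that DAC acts on, 6 were higher and 0 lower, against 20.8% of all genes higher and 22.0% lower (3 higher without ELF-153 DAC replicate 2, and 3 without UCSD-AML1 DAC replicate 2). DNMT1, the maintenance methyltransferase, had 162, 174 and 192 in ELF-153 DAC against 127, 117 and 86.4 in UCSD-AML1 DAC (0.69 ± 0.19, adjusted p = 0.00825). Its direction rested on which transcripts were summed: without retained-intron and processed transcripts the difference was −0.09 (adjusted p = 0.862). DNMT3A was not called (0.27 ± 0.23, adjusted p = 0.37), nor was DNMT3B (0.55 ± 0.42, adjusted p = 0.321), and in both the groups overlapped. HELLS, a chromatin remodeller needed for methylation, had 119, 231 and 127 in ELF-153 DAC against 39.3, 20.2 and 36.9 in UCSD-AML1 DAC (2.26 ± 0.28).

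Of 24 genes of decitabine uptake and nucleotide metabolism, 10 were higher and 5 lower (5 higher and 2 lower with the mitochondrial covariate). ABCB1, the drug efflux pump encoded on chromosome 7, had 218, 314 and 286 in ELF-153 DAC against 4.92, 13.5 and 1.94 in UCSD-AML1 DAC (5.42 ± 0.60). TYMS, thymidylate synthase, had 35, 42.7 and 33.3 in ELF-153 DAC against 4.92, 11.2 and 9.71 in UCSD-AML1 DAC (2.04 ± 0.29), though the call was lost without retained-intron and processed transcripts (0.89, adjusted p = 0.149). DCK, the kinase that activates decitabine, was not called (−0.55 ± 0.29, adjusted p = 0.142), with means of 25.6 ± 4.70 in ELF-153 DAC and 37.7 ± 5.35 in UCSD-AML1 DAC. SLC29A1, a nucleoside transporter, was not called either (adjusted p = 0.0661), with means of 21.6 ± 6.94 in ELF-153 DAC and 45.1 ± 17.9 in UCSD-AML1 DAC.

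Interferon-stimulated genes differed less between the lines with DAC than without it. Of 44 tested, 13 were lower and 4 higher in ELF-153 DAC (median −0.44; 2 to 5 higher when single libraries were left out), whereas without DAC 42 were lower and 0 higher in ELF-153 (median −3.58). The line by treatment difference was called higher for 39 of the 44 and lower for 0. Against untreated libraries of the same line, 40 were higher with DAC in ELF-153 and 0 lower, and 4 were higher and 11 lower in UCSD-AML1. Of all genes 22.7% were higher and 35.2% lower in untreated ELF-153, and the change was called upward for 17.1% and downward for 8.71%. With DAC 20.7% of all genes were higher and 12.9% lower in ELF-153, and 20.0% and 20.1% in UCSD-AML1. MX1, an antiviral GTPase, had 138, 117 and 139 in ELF-153 DAC against 1192, 1153 and 1080 in UCSD-AML1 DAC (−3.11 ± 0.19), and a mean of 17.2 in untreated ELF-153 and 1659 in untreated UCSD-AML1. IFI44L had 378, 746 and 361 in ELF-153 DAC against 3332, 3217 and 4849 in UCSD-AML1 DAC (−3.00 ± 0.28), and a mean of 1.97 in untreated ELF-153 and 7029 in untreated UCSD-AML1, the largest line by treatment difference of the named genes (8.25 ± 0.40). IFITM3, which blocks virus entry, had 545, 429 and 439 in ELF-153 DAC against 2213, 2704 and 2320 in UCSD-AML1 DAC (−2.36 ± 0.25).

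The promoters of these genes are shown because the members moved together. The core of the interferon-stimulated response element, GAAA followed by any 2 bases and a second GAAA, was found on either strand in 23 of 35 promoters of the list (65.7%) and in 5 of 8 of the HLA class I list (62.5%), against 2.99% of the 9742 promoters of genes tested and 3.57% of all 35116. Capitals mark the matches in the RefSeq promoters (GRCh38.p14, on the strand of the gene) of IFI44L (chr1:78620198-78620497, plus strand), MX1 (chr21:41420308-41420607, plus strand) and IFITM3 (chr11:320811-321110, minus strand).
IFI44L: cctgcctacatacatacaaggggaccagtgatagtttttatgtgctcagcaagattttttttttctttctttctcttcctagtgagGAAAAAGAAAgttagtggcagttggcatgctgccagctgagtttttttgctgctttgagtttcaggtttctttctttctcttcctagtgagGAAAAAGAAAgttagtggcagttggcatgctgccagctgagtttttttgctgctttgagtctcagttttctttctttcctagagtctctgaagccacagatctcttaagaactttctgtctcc
MX1: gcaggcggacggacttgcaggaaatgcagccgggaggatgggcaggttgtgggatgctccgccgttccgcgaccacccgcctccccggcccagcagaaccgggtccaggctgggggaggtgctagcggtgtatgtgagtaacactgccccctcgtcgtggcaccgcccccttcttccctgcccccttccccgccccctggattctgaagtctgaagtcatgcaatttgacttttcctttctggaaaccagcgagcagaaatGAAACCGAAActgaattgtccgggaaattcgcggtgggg
IFITM3: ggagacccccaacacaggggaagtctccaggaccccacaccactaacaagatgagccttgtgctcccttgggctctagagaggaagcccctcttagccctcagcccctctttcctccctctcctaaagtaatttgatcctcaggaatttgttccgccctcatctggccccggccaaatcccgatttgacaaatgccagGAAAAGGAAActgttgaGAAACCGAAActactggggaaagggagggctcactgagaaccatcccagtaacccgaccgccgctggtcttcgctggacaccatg
All 3 genes were lower in ELF-153 DAC, and genes with no match may hold the element outside this window.

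OAS2, a sensor of double-stranded RNA, had 794, 968 and 839 in ELF-153 DAC against 2344, 2507 and 2684 in UCSD-AML1 DAC (−1.54 ± 0.17). The 4 higher genes, named after their values were seen, were GBP1 (1.76), IFITM1 (1.11), CMPK2 (1.07) and OASL (0.68), and each of them was lower in untreated ELF-153. At 144 h 19 were higher and 5 lower in ELF-153 DAC (median 0.58), where 30.0% of all genes were higher and 14.6% lower and the median of protein-coding genes was 0.38. IFI44L then differed by 0.12 and OAS2 by −0.34.

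Genes of nucleic acid sensing and of HLA class I were more often lower than higher. Of 13 genes that sense double-stranded RNA and DNA, 5 were lower and 1 higher in ELF-153 DAC. MAVS, the mitochondrial adaptor of RNA sensing, had 564, 482 and 621 in ELF-153 DAC against 2286, 2319 and 1992 in UCSD-AML1 DAC (−1.99 ± 0.17). TMEM173, the adaptor STING, had 359, 332 and 395 in ELF-153 DAC against 862, 846 and 773 in UCSD-AML1 DAC (−1.19 ± 0.18), a call lost without retained-intron and processed transcripts (adjusted p = 0.0622). Of 10 genes of HLA class I presentation, 6 were lower and 1 higher. NLRC5, their transactivator, had 215, 183 and 179 in ELF-153 DAC against 854, 816 and 602 in UCSD-AML1 DAC (−1.96 ± 0.18), and ERAP1, which trims peptides, 176, 343 and 193 in ELF-153 DAC against 1148, 1078 and 1503 in UCSD-AML1 DAC (−2.43 ± 0.23).

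HLA class II presentation ran the other way, with 5 of 6 genes higher and 0 lower. CIITA, the class II transactivator, had 581, 557 and 535 in ELF-153 DAC against 156, 68.6 and 68 in UCSD-AML1 DAC (2.62 ± 0.29), and CD74, the invariant chain, 550, 642 and 580 in ELF-153 DAC against 259, 323 and 359 in UCSD-AML1 DAC (0.92 ± 0.19). HLA-DRB5 had 172, 138 and 163 in ELF-153 DAC against no read in UCSD-AML1 DAC, at least 154-fold higher, but DRB genes are near-copies and DRB5 is carried by only some haplotypes. Of 27 targets and regulators of NF-kB 12 were lower and 0 higher (8 lower without ELF-153 DAC replicate 3): NFKBIA had 299, 270 and 271 in ELF-153 DAC against 592, 797 and 666 in UCSD-AML1 DAC (−1.28 ± 0.17).

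Cancer-testis genes are germline genes that methylation keeps silent in other tissues. Of 71 in the annotation, 22 passed the filter on low values, and 21 of those were higher in ELF-153 DAC and 0 lower (median 3.54). For 10 of the 22 the ELF-153 DAC libraries alone carried the gene past the filter, so that these had to be higher, and the count is given as a description. Without any 1 ELF-153 DAC library only 12 were tested and 10 or 11 were called. MAGEB3 had 112, 92.4 and 101 in ELF-153 DAC against 0, 2.25 and 0 in UCSD-AML1 DAC, a ratio of 149 with a 95% counting interval of 40.9 to 1234. PAGE1 had 135, 128 and 187 in ELF-153 DAC against 1.97, 3.37 and 0 in UCSD-AML1 DAC (5.99 ± 0.51), and VCX3A 150, 137 and 136 in ELF-153 DAC against 2.95, 0 and 2.91 in UCSD-AML1 DAC (5.83 ± 0.51), with reads of the VCX copies not separable. All 3 genes were at 0 in the untreated libraries of both lines. They are among those that passed the filter only through ELF-153 DAC and had to be higher. Against untreated libraries 21 of the 22 were higher with DAC in ELF-153 and 16 in UCSD-AML1 (20.7% and 20.0% of all genes). For the same 10 genes the direction in ELF-153 was also set by the filter, so that these counts cannot be compared between the lines. At 144 h 21 were higher in ELF-153 DAC (30.0% of all genes).

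Of 66 genes of germ cells, meiosis and the piRNA pathway, 24 passed the filter, and 13 were higher and 4 lower (7 higher and 2 lower without ELF-153 DAC replicate 2). For 3 of the 24 the ELF-153 DAC libraries alone carried the gene past the filter, so that these had to be higher. STRA8 and PIWIL4 are among them. STRA8, which starts meiosis, had 33.2, 45.3 and 29.4 in ELF-153 DAC against 0.984, 2.25 and 0 in UCSD-AML1 DAC, a ratio of 35.5 with a 95% counting interval of 11.9 to 175. TDRD12, a piRNA pathway protein, had 674, 683 and 712 in ELF-153 DAC against 71.8, 73.1 and 49.5 in UCSD-AML1 DAC (3.41 ± 0.36). PIWIL4, a piRNA-binding protein, had 106, 113 and 95.9 in ELF-153 DAC against 0.984, 0 and 1.94 in UCSD-AML1 DAC, a ratio of 103 with an interval of 35 to 503.

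Imprinted genes were divided, 9 of 29 higher and 11 lower. MEG3, a maternally expressed non-coding RNA, had 0.947, 3.49 and 0 in ELF-153 DAC against 1237, 941 and 827 in UCSD-AML1 DAC (−8.91 ± 0.48). MEG8 and DLK1 of the same domain on chromosome 14 were lower as well. MEG8 had 0, 0.872 and 0 in ELF-153 DAC against 183, 161 and 257 in UCSD-AML1 DAC, and DLK1 had no read in ELF-153 DAC against 30.5, 20.2 and 23.3 in UCSD-AML1 DAC, at least 26.5-fold lower. The matrix genes leaned to UCSD-AML1, with 17 of 34 lower and 10 higher. COL5A1, a fibrillar collagen chain, had 18.9, 24.4 and 22.5 in ELF-153 DAC against 2846, 2213 and 1658 in UCSD-AML1 DAC (−6.58 ± 0.19), while untreated cells averaged 696 in ELF-153 and 1199 in UCSD-AML1.

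The 12 largest differences in each direction among genes with a mean of at least 100 in the higher group were near on-off differences. On the lower side stood LINC02470, with no read in ELF-153 DAC against 1997, 2236 and 2316 in UCSD-AML1 DAC, at least 2340-fold lower. BTN1A1, a butyrophilin of the milk fat membrane, had 14.2, 10.5 and 14.7 in ELF-153 DAC against 11567, 13253 and 10934 in UCSD-AML1 DAC (−9.73 ± 0.18, adjusted p = 2.52e-13). CLEC2A and CLEC9A, lectin receptors of the same region of chromosome 12 as CLEC1B and CLEC12A, had no read in ELF-153 DAC and were at least 964-fold and at least 688-fold lower. LSAMP, STXBP6, LRRC38, BASP1 and GCOM1 had 1 to 3 reads in ELF-153 DAC, so that ratios of UCSD-AML1 DAC to ELF-153 DAC are given with 95% counting intervals: 2750 (761 to 22711) for LSAMP, an adhesion molecule of neurons, 3699 (663 to 146149) for STXBP6, 3181 (880 to 26270) for LRRC38, 1201 (411 to 5826) for BASP1 and 2790 (500 to 110230) for GCOM1. GCOM1 is a readthrough locus, whose reads its neighbours share.

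On the higher side NUDT11, an inositol pyrophosphate hydrolase of the X chromosome with a near-copy, had 284, 412 and 306 in ELF-153 DAC and no read in UCSD-AML1 DAC, at least 325-fold higher. MPV17L was at least 277-fold higher, with 309, 280 and 264 in ELF-153 DAC. ATP8A2, a lipid flippase, had 889, 961 and 889 in ELF-153 DAC against 1.97, 0 and 0.971 in UCSD-AML1 DAC. IRS1, the insulin receptor substrate, had 723, 626 and 690 in ELF-153 DAC against 3.93, 1.12 and 1.94 in UCSD-AML1 DAC (7.76 ± 0.37). PLIN2, the lipid droplet protein perilipin, had 919, 769 and 837 in ELF-153 DAC against 7.87, 0 and 2.91 in UCSD-AML1 DAC (8.01 ± 0.58). PSAT1, the serine synthesis enzyme, had 233, 295 and 244 in ELF-153 DAC against 0, 0 and 0.971 in UCSD-AML1 DAC, and ZNF626, ZNF827, ZBED6CL, C1orf21 and LINC00922 had a pattern of the same kind. MTRNR2L1, at 92315, 108051 and 109122 in ELF-153 DAC against 70.8, 66.3 and 83.5 in UCSD-AML1 DAC, is a nuclear near-copy of mitochondrial ribosomal RNA, so that its reads are uncertain. Of these genes LINC00922 was the exception that arose with treatment, at a mean of 2.89 in untreated ELF-153 and 0 in untreated UCSD-AML1 (line by treatment 6.23 ± 0.75). LINC00922 passed the filter on low values only through ELF-153 DAC, so that it had to be higher there.

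Most differences under DAC were already there without it, where 10195 genes (57.9%) were called. Of the 3670 higher genes 2220 (60.5%) were also higher in untreated ELF-153, which is 55.5% of the 4003 (22.7% of those tested) higher genes there. Of the 3881 lower genes 2733 (70.4%) were also lower in untreated ELF-153, which is 44.1% of the 6192 (35.2%) lower genes there. The opposite direction was called for 210 (5.72%) of the higher and 117 (3.01%) of the lower genes. The treated and untreated comparisons share no library, but they share the fit and its spread.

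The line difference itself changed with DAC for 4544 genes (25.8%), 3011 (17.1%) upward and 1533 (8.71%) downward. The median of this change over all genes was 0.19 with the deposited scaling and −0.00 with TMM factors in limma, which called 2352 upward and 2057 downward. Without UCSD-AML1 DAC replicate 2 the downward count was 1003, and without replicate 1 of untreated UCSD-AML1 the upward count was 1997. For untreated cells the median difference was −0.23 as deposited, against 0.01 with TMM, and the higher share of calls was 39.3% against 50.2%. Changes of the line difference are therefore to be read relative to these medians. Of the 3670 higher genes under DAC 1240 were not called without it, and for 577 of these the change was called; of the 3881 lower genes 1031 were not called without DAC, and for 391 the change was called. Conversely 2145 genes called without DAC were not called under it and had a called change, 1583 of them lower and 562 higher in untreated ELF-153.

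**Figure D3:**
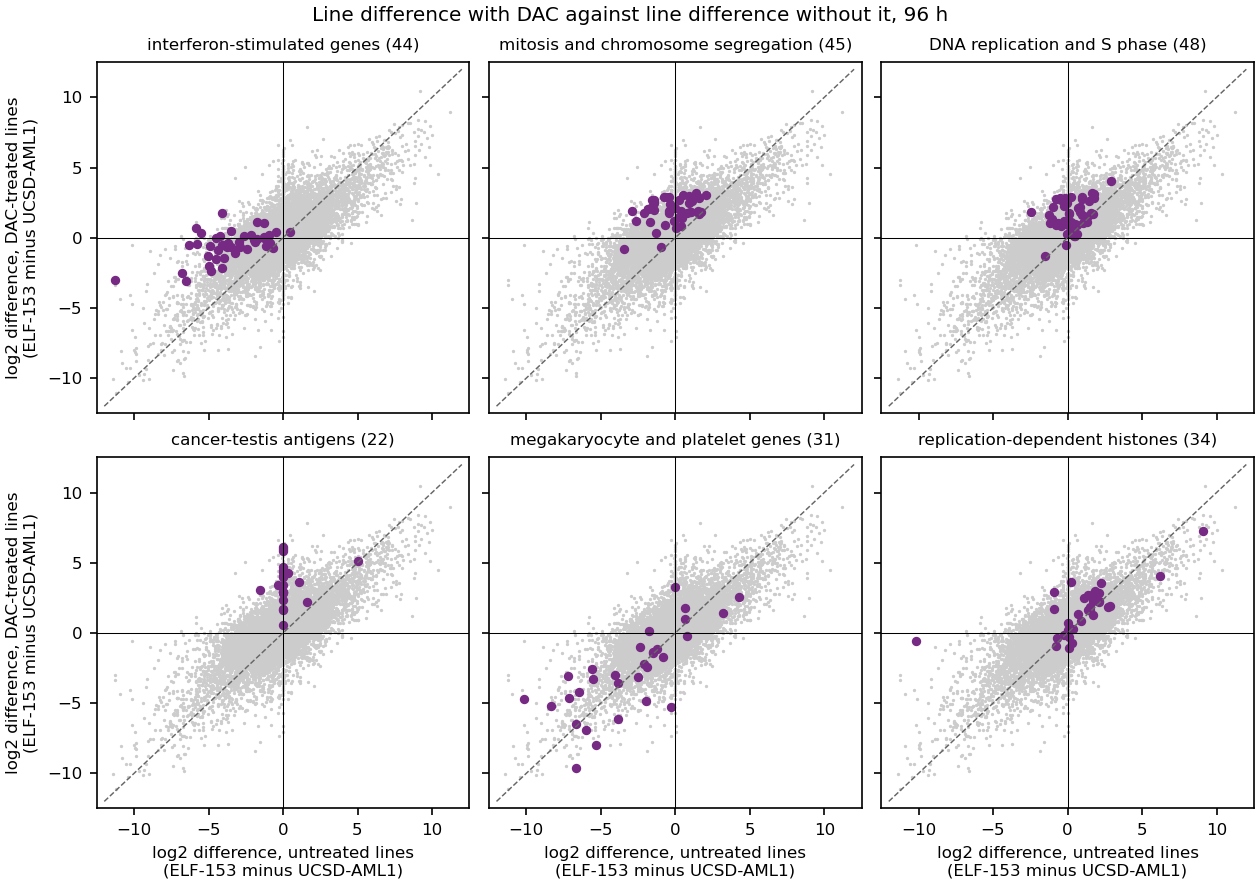
Log2 line difference with DAC (vertical) against that without DAC (horizontal), ELF-153 minus UCSD-AML1 at 96 h, for all genes tested (grey) and the members of 6 lists (purple); the dashed line marks equal differences. Interferon-stimulated genes lie above the line (medians −0.44 with DAC and −3.58 without), as do most mitosis and replication genes.

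STAB1, a scavenger receptor, had 1030, 716 and 851 in ELF-153 DAC against 9164, 9792 and 7927 in UCSD-AML1 DAC (−3.38 ± 0.25), and a mean of 0.677 in untreated ELF-153 and 3900 in untreated UCSD-AML1, a change of 7.88 ± 0.35. PAX8-AS1, an antisense RNA, had 462, 374 and 412 in ELF-153 DAC against 871, 789 and 805 in UCSD-AML1 DAC (−0.98 ± 0.24, not called with the mitochondrial covariate, adjusted p = 0.377), and means of 0.645 in untreated ELF-153 and 750 in untreated UCSD-AML1. MKRN3, an imprinted gene of chromosome 15, had 171, 187 and 160 in ELF-153 DAC against 333, 453 and 438 in UCSD-AML1 DAC (−1.22 ± 0.26, adjusted p = 0.0527 with the mitochondrial covariate), with means of 0.304 in untreated ELF-153 and 373 in untreated UCSD-AML1. These genes were near 0 in untreated ELF-153 and detected with DAC in both lines.

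The opposite pattern, detection in UCSD-AML1 with DAC only, was seen for XKR4, which had no read in ELF-153 DAC against 370, 325 and 337 in UCSD-AML1 DAC, at least 369-fold lower. PTGIS, prostacyclin synthase, had 5.68, 0 and 1.96 in ELF-153 DAC against 373, 464 and 280 in UCSD-AML1 DAC (−7.08 ± 0.61). The untreated means of PTGIS were 0.304 in ELF-153 and 0.263 in UCSD-AML1. XKR4 and PTGIS passed the filter on low values only through UCSD-AML1 DAC, so that they had to be lower in ELF-153 DAC. TUBA3E, an alpha tubulin with near-copies, was detected mainly in ELF-153 DAC, at 197, 127 and 142 in ELF-153 DAC against 0.984, 0 and 0.971 in UCSD-AML1 DAC (2 reads), and untreated means were 0 in ELF-153 and 0.306 in UCSD-AML1. TUBA3E passed that filter only through ELF-153 DAC and had to be higher there. KIT crossed in the means: it was lower in untreated ELF-153, at a mean of 291 against 1752 in untreated UCSD-AML1 (−2.74, adjusted p = 0.000201), and was not called under DAC without the mitochondrial covariate (change 2.97 ± 0.65).

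At 144 h the same comparison was made in other libraries of the same lines. There 5152 (30.0%) of 17180 genes were higher and 2503 (14.6%) lower in ELF-153 DAC. Of the 3553 higher genes of 96 h that were tested at 144 h, 3120 (87.8%) were higher again, which is 60.6% of the higher genes at 144 h, and 0 were lower. Of the 3695 lower genes tested at 144 h, 2122 (57.4%) were lower again, which is 84.8% of the lower genes there, and 6 were higher. The median of protein-coding genes was 0.38 at 144 h and −0.01 at 96 h, so that the balance of directions differed between the tables. The differences at 144 h were 6.26 for CDKN2B (6.99 at 96 h), 3.85 for S100A9 (4.49 at 96 h), 4.43 for HBG1 (3.36 at 96 h), −3.16 for ITGB3 (−4.61 at 96 h) and −11.19 for CDH5 (−10.11 at 96 h), each in the same direction and called at both times.

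By chromosome, protein-coding genes of chromosome 7 stood highest and those of chromosome 5 lowest. On chromosome 7 the median was 0.75, with 46.1% of 505 genes higher and 9.70% lower. On chromosome 5 it was −0.74, with 14% of 522 genes higher and 45.8% lower, and on chromosome 17 it was −0.58, with 13.3% of 694 genes higher and 41.9% lower. Over all 11619 protein-coding genes the median was −0.01, with 22.1% higher and 21.8% lower. Chromosome 7 stood above also without DAC (0.55, against −0.19 for all) and at 144 h (1.23, against 0.38), and chromosome 5 below (−1.24 and −0.24). Without DAC chromosomes 16 and 19 stood nearly as high as chromosome 7 (0.52 and 0.53). With DAC their medians were 0.29 and 0.21 at 96 h, and 0.48 and 0.37 at 144 h. These medians are descriptions without a test, and the number of copies of each chromosome in the lines was not measured.

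**Figure D4:**
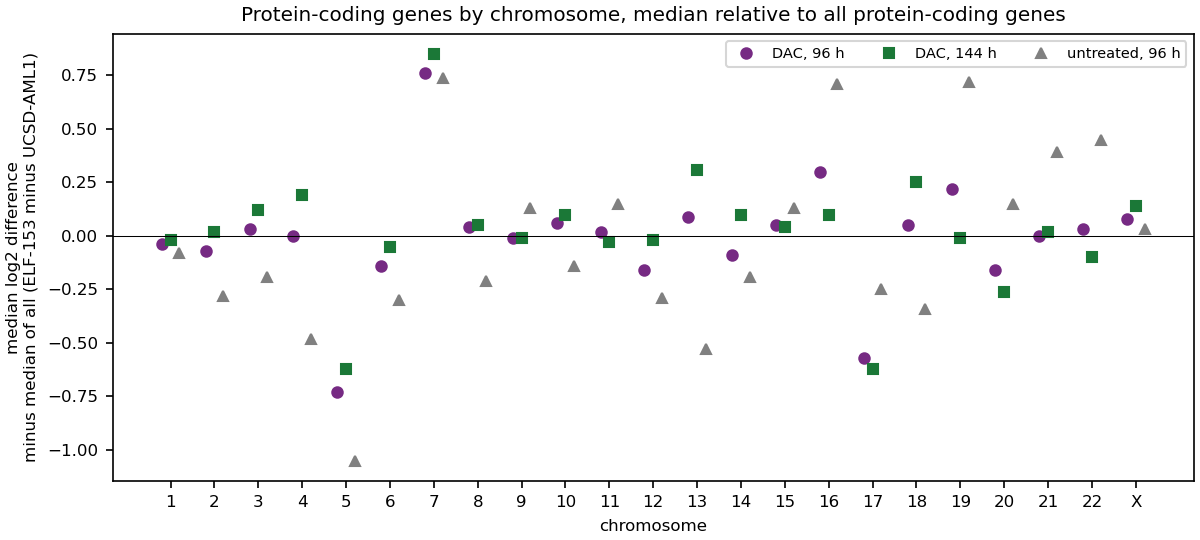
Median log2 difference of protein-coding genes per chromosome minus that of all protein-coding genes, ELF-153 minus UCSD-AML1, with DAC at 96 h (circles), with DAC at 144 h (squares) and untreated at 96 h (triangles). Chromosome 7 lies above and chromosomes 5 and 17 below the line at 0.

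Repeat families were read from the same 6 libraries, which held 3.17 to 3.55 Mreads in ELF-153 DAC and 2.42 to 2.88 Mreads in UCSD-AML1 DAC. Of 1061 families 42 (3.96%) were higher and 270 (25.4%) lower in ELF-153 DAC, with a median of −0.44. That split belongs to the scaling by gene reads: with TMM over the families 142 (13.4%) were higher and 114 (10.7%) lower and the median was 0.02. The lower count was 538 without ELF-153 DAC replicate 2, 142 and 136 without its replicates 1 and 3, and 138 and 165 without UCSD-AML1 DAC replicates 1 and 3. Without DAC 88 (8.29%) were higher and 461 (43.4%) lower in ELF-153. The families named below are the 8 per direction with the smallest adjusted p, and each kept its direction and its call in every alternative in which it was tested.

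HERV-Fc1, a small family of endogenous retroviruses, marked ELF-153 DAC. Its internal part HERV-Fc1-int had 323, 395 and 372 in ELF-153 DAC against 6.89, 14.6 and 10.7 in UCSD-AML1 DAC (5.01 ± 0.59), and its long terminal repeat HERV-Fc1_LTR1 had 108, 106 and 109 in ELF-153 DAC against 3.93, 0 and 1.94 in UCSD-AML1 DAC (5.47 ± 0.58). Untreated means of HERV-Fc1-int were 1.02 in ELF-153 and 0.611 in UCSD-AML1. HERV-Fc1_LTR1 passed the filter on low values only through the ELF-153 DAC libraries, so that it had to be higher. It was not tested when any of them was left out or at a mean of at least 50. MER48, a long terminal repeat, had 698, 522 and 627 in ELF-153 DAC against 130, 133 and 122 in UCSD-AML1 DAC (2.24 ± 0.18). The satellites SST1 (439, 403 and 414 in ELF-153 DAC against 66.9, 101 and 80.6 in UCSD-AML1 DAC) and BSR/Beta (250, 321 and 286 in ELF-153 DAC against 44.3, 47.2 and 49.5 in UCSD-AML1 DAC) were higher as well, and of 14 satellite families 6 were higher and 1 lower, or 9 and 0 with TMM.

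HERVI-int and HERVK14-int marked UCSD-AML1 DAC. HERVI-int had 170, 213 and 198 in ELF-153 DAC against 5277, 4082 and 4192 in UCSD-AML1 DAC (−4.53 ± 0.16), and was further apart without DAC, at means of 42 in ELF-153 and 3060 in UCSD-AML1 (change 1.62 ± 0.22). HERVK14-int had 88.1, 103 and 104 in ELF-153 DAC against 2934, 2880 and 3036 in UCSD-AML1 DAC (−4.90 ± 0.19), and its long terminal repeat LTR14A had 3.79, 10.5 and 12.7 in ELF-153 DAC against 750, 828 and 703 in UCSD-AML1 DAC (−6.38 ± 0.38). Their untreated means were closer, at 79.9 in ELF-153 and 165 in UCSD-AML1 for HERVK14-int, and at 7.26 in ELF-153 and 26.5 in UCSD-AML1 for LTR14A, and the change of the line difference was called for both (−3.83 ± 0.26 and −4.62 ± 0.54). MER61C, LTR19C, LTR10B2, L1PBb and LTR25-int were also lower, with log2 differences of −3.99 to −1.68.

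Families often read after DAC treatment were not called, or rested on the scaling. LTR12C had 7226, 6756 and 7391 in ELF-153 DAC against 8551, 9879 and 8146 in UCSD-AML1 DAC (−0.31 ± 0.13, adjusted p = 0.0857). L1HS, the youngest L1, had 472, 699 and 566 in ELF-153 DAC against 450, 398 and 397 in UCSD-AML1 DAC (0.46 ± 0.24, adjusted p = 0.154), but was called with TMM over the families (0.93, adjusted p = 2.11e-04). LTR5_Hs, the long terminal repeat of HERV-K, differed by −0.02 ± 0.16 (adjusted p = 0.94), or by 0.45 with TMM over the families (adjusted p = 0.0352). Of 51 Alu families 35 were lower and 0 higher, but 1 and 1 with TMM. The line difference of repeats changed with DAC for 15 families upward (1.41%) and 35 downward (3.30%).

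**Figure D5:**
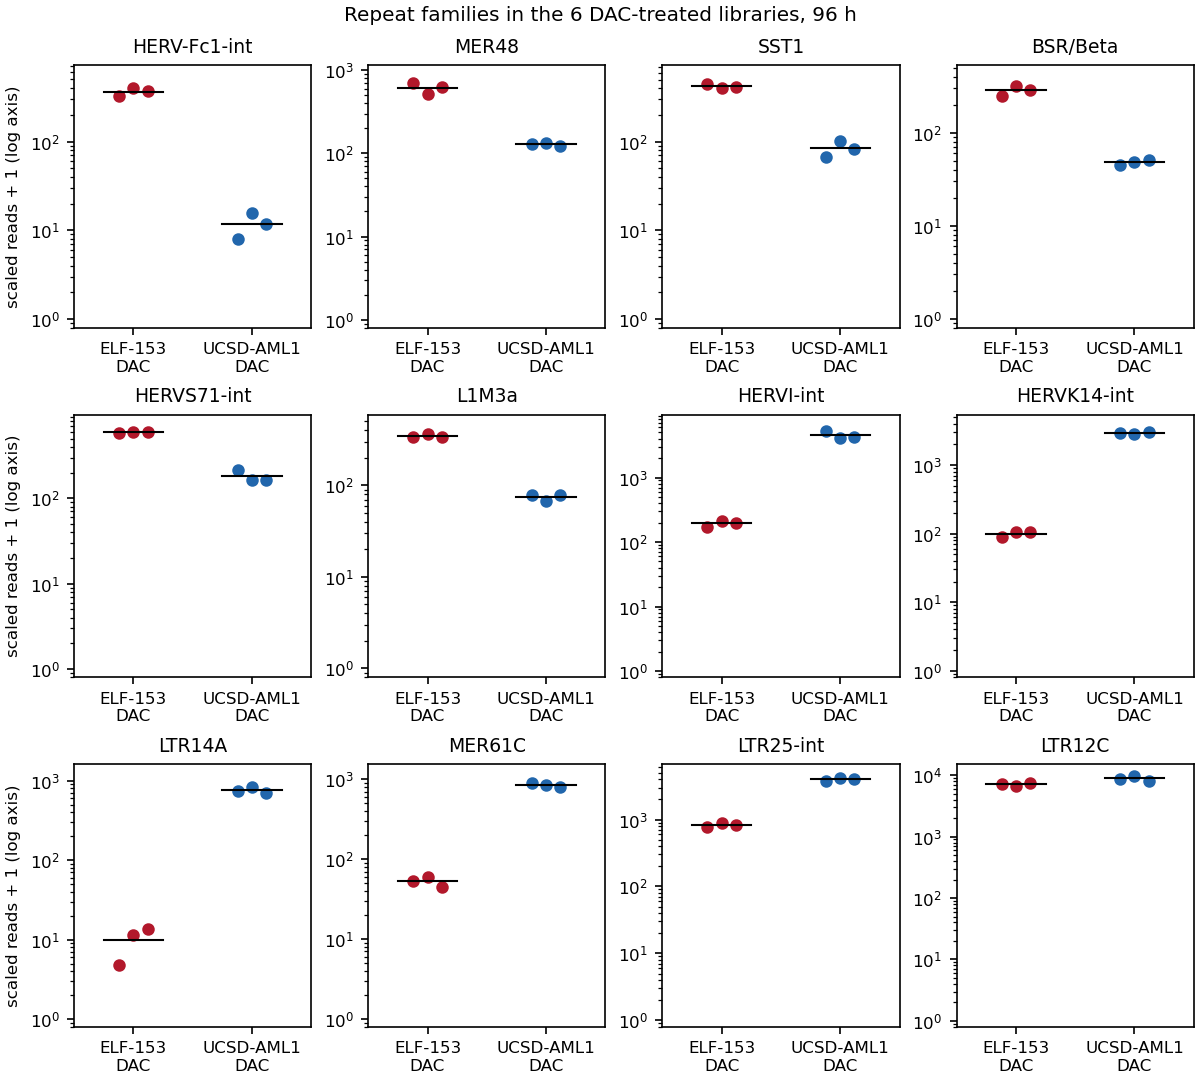
Scaled reads plus 1 (log axis) of 12 repeat families in each DAC-treated library at 96 h, with ELF-153 DAC in red on the left and UCSD-AML1 DAC in blue on the right; bars are means of 3 libraries. HERV-Fc1-int, MER48, SST1, BSR/Beta, HERVS71-int and L1M3a are higher in ELF-153 DAC, and HERVI-int, HERVK14-int, LTR14A, MER61C and LTR25-int are lower.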

How the data were processed

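The measurements are RNA sequencing of 2 AML lines at 96 h, with 144 h libraries as a repeat. Deposited values are signal: per library, the reads of a transcript or repeat family divided by 1 size factor by the authors, and within a tolerance of 0.01 all non-zero values (100%) were whole reads times that factor. Per the submitters' processing notes the tools were HTSeq, STAR, TopHat2, DESeq2 and FastQC on hg19, with no role assigned.

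Transcripts (204940, of which 181859 or 88.7% matched, holding 97.8% of the signal) were summed to genes by GENCODE identifiers, and 23081 unmatched transcripts were tested apart (215 of 1190 higher, 232 lower). Reads shared between transcripts appear to have been left out, which makes levels of different genes incomparable and near-copies uncertain. Counting intervals and floors (3 reads over a group) cover counting error only, and replicates differed by more than that (chi-square per degree of freedom 16.2 to 91.6).

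The test was limma 3.58.1 (R 4.3.3; trend, robust, group means over the 12 libraries of a harvest) on log2 of the gene sum plus 1, where at least 3 libraries reached 10. As the table held no raw counts, edgeR 4.0.16 served as an alternative on recovered reads and called 3973 higher and 3584 lower genes, and DESeq2 1.42.0 another. For repeats, RNA genes and simple repeats were left out and each library was divided by its factor from the gene table. The limma test of the treated comparison was checked on simulated counts, for genes and for repeats. Other steps ran in Python 3.11.15 (pandas 2.3.3, numpy 2.4.6, scipy 1.17.1, matplotlib 3.10.9).

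Named genes are a fixed set, the 12 largest differences per direction, the 4 members per list with the smallest adjusted p, the 8 largest changes of the line difference per direction and 8 repeat families per direction, shortened for length; other genes are named as said beside them or as members of their lists. The comparison, the 37 lists and the tests were chosen with earlier results of these data known. Genes of the Y chromosome were left out of the names, and some items are not reported here.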

Additional observations from a re-analysis of the deposited data

Results flagged for a closer look

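A difference between the lines in their response to DAC, tested as line by treatment in limma (adjusted p below 0.05), was called upward (the ELF-153 minus UCSD-AML1 difference was higher with DAC than without) for 3011 genes and 15 repeat families, and downward for 1533 genes and 35 repeat families. Of the fixed genes it was called for CDKN2B (log2 change of the line difference 6.49), HBG1 (3.26), KIT (2.97), GATA1 (2.92), PF4 (2.19) and MECOM (1.87). CDKN2B passed the filter on low values only through ELF-153 DAC and could be tested only by being high there.

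Among the largest such changes upward were IFI44L (8.25), PAX8-AS1 (7.92), STAB1 (7.88), MKRN3 (7.01), EGR3 (6.93), TUBA3E (6.92), TDRD9 (6.69) and CLECL1 (6.59). In all of these but TUBA3E the untreated ELF-153 libraries were near 0 and the untreated UCSD-AML1 libraries were not. Among the largest changes downward were SYNDIG1 (−7.41), PTGIS (−7.11), HAPLN1 (−6.70), XKR4 (−6.56), IGSF10 (−6.48), PGC (−6.22) and KIAA0087 (−5.87). SYNDIG1, IGSF10 and KIAA0087 were at means of 571, 539 and 1343 in untreated ELF-153 and near 0 in untreated UCSD-AML1, while the other four were near 0 in untreated cells of both lines and detected in UCSD-AML1 with DAC. PTGIS, HAPLN1, XKR4 and PGC passed the filter on low values only through UCSD-AML1 DAC, and TUBA3E only through ELF-153 DAC. Such genes could be tested only by being high in that group. Where a group was near 0 a change of this kind depends on the 1 that was added before logs were taken and is no fold. Under DAC itself the calls of EGR3 and TDRD9 were lost when single libraries were left out.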

How the results depend on the processing

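Higher and lower counts of the treated comparison were 3670 and 3881. DESeq2 gave 4010 and 3781, edgeR with TMM 3973 and 3584, and the 6 treated libraries alone 3373 and 3824. They were 2046 and 2583 of 9855 genes at a mean of at least 50, where fewer genes are tested. Leaving out 1 library gave 2806 to 3969 higher and 3150 to 4351 lower genes (treated), 3426 to 3989 and 5464 to 6301 (untreated), 1997 to 3445 and 1003 to 1565 (line by treatment), and 33 to 44 and 136 to 538 repeat families. Line by treatment gave 1984 upward with edgeR and TMM, and repeats gave 558 lower as deposited and 142 higher and 114 lower with TMM over the families. Of 4503 values of the 183 called named genes under these settings, 4455 kept direction and call, 47 kept only direction and 1 reversed: DNMT1 at −0.09 without retained-intron and processed transcripts. A gene that failed the filter of a setting had no value there and is missing from this count. Genes that passed only through ELF-153 DAC, CDKN2B and MAGEB3 among them, were thus not tested when a library of that group was left out. The same held for XKR4, PTGIS, HAPLN1 and PGC with UCSD-AML1 DAC. LTR5_Hs reversed to 0.45 with TMM over the families. The causes were not tested. Replicate numbers did not pair the lines (correlations of 0.07, −0.33 and −0.23 between same-numbered treated libraries, −0.30 to 0.42 otherwise). Same-numbered treated and untreated libraries correlated at 0.30, 0.33 and −0.04 within ELF-153 (−0.33 to 0.11 otherwise). Within UCSD-AML1 these correlations were −0.07, 0.01 and −0.05. With a replicate block 3579 genes were higher and 3849 lower. The block gave 2990 upward and 1467 downward for line by treatment, and 40 and 246 repeat families. Depth limits genes near the floor of 3 reads, for which ratios are bounds or wide intervals.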
